A study of Homo sapiens with 6 samples.

Results

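XDH and 9 genes of purine synthesis and salvage were measured in MDA-MB-453 cells cultured with or without 25(OH)D. The 10 genes are XDH, PPAT, GART, PFAS, PAICS, ADSL, ATIC, IMPDH1, IMPDH2 and HPRT1. They were chosen by name for their place in purine metabolism, with earlier results of these data known, that of XDH among them. All 10 were found among the 33451 genes of the deposited count table. MDA-MB-453 is a human line of luminal breast cancer, and 25(OH)D is the vitamin D metabolite found in the circulation. The 25(OH)D group (3 libraries) was cultured with 100 nM 25(OH)D for 5 days and the control group (3 libraries) with the solvent, alcohol. Both groups are the same unmodified line in culture, so the values describe 1 cell line, and the study calls the libraries biological replicates without naming separate cultures. The p-values therefore measure the spread between these libraries.

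Purine nucleotides are built on phosphoribosyl pyrophosphate (PRPP), made by the PRPS enzymes. The route to inosine monophosphate (IMP) runs through PPAT, which commits PRPP to it, then GART, PFAS, PAICS, ADSL and ATIC, and it consumes glycine, glutamine, aspartate, carbon dioxide and formyl groups carried by folate. IMP is then turned to AMP or, through IMPDH1 or IMPDH2, to GMP. HPRT1 returns the free bases hypoxanthine and guanine to IMP and GMP, and XDH, xanthine dehydrogenase, oxidises hypoxanthine and xanthine to urate. In mammary epithelium XDH is also known as a protein of the milk fat globule, and dividing cells are known to draw on the route to IMP.

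In the 25(OH)D group 7 of the 10 genes were lower than in the control group, at an adjusted p under 0.05 by the quasi-likelihood test of edgeR. Of all 18183 genes tested, 33.8% were called, 16.5% lower and 17.3% higher. The 7 were XDH, PFAS, IMPDH2, HPRT1, IMPDH1, PAICS and GART, of which XDH was known from earlier results of these data. By the same test 0 of the 10 were higher, as at an unadjusted p under 0.05 and by DESeq2, and PPAT, ADSL and ATIC did not pass the test. The median log2 fold change of the 10 genes was -0.25, against -0.011 over all genes tested. In CPM, counts scaled to library size with the factors of the test, the 25(OH)D libraries all lay below the controls in 8 of the 10 genes. They all lay above them in 1, and these patterns held in 22.9% and 22.8% of all genes tested. Scaled by library totals alone, the 25(OH)D libraries of ADSL lay below the controls too, and those of PPAT overlapped them. Most of the falls were small beside that of XDH, and only XDH was called at the limits the study draws, a log2 fold change beyond 1 and an unadjusted p under 0.05, which 2.63% of all genes tested passed in the lower direction and 4.02% in the higher. In these bulk libraries, fewer cells that express a gene and less RNA of it per cell cannot be told apart.

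**Figure D1:**
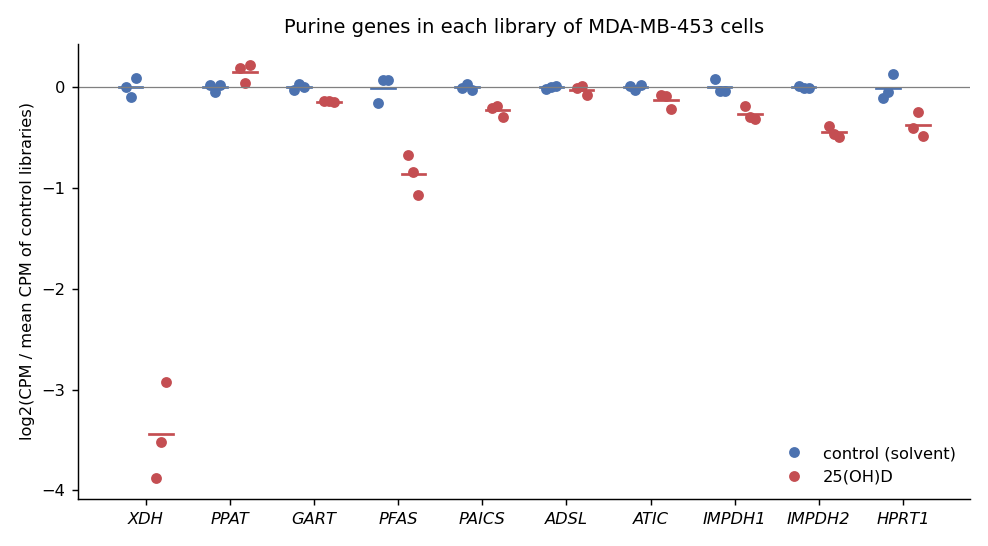
Level of each of the 10 genes in each library, as the log2 ratio of its CPM (counts scaled to library size) to the mean of the 3 control libraries. Points are libraries and short lines are group means, on the log2 scale. The 25(OH)D libraries lie below all control libraries for 8 genes, above them for PPAT and among them for ADSL.

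The libraries held between 33268860 and 40928176 counts, and 3 counts were worth between 0.0720 and 0.0921 CPM, a unit that sets the libraries to the same size. Of the luminal epithelial markers, KRT8 had between 1636 and 1693 CPM in the control libraries, against 1825 to 1869 CPM with 25(OH)D, and ERBB2 had between 348 and 351 CPM, against 396 to 416 CPM, so both rose. KRT18 rose too, EPCAM did not pass the test, and GATA3, FOXA1 and KRT19 fell, with log2 fold changes of -0.80, -0.46 and -0.41. Leukocyte markers summed to at most 0.364 CPM, PTPRC at no more than 6 counts in any library. Of the fibroblast markers only COL1A1 was above a trace, and the other 3 summed to at most 0.543 CPM. Mitochondrial genes took between 7.85% and 7.99% of the control counts and between 8.89% and 9.24% of the 25(OH)D counts, and the part of this difference in the values below was not tested.

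The start regions of a few genes are given here because they show how the genes are laid out. PPAT and PAICS lie head to head on chromosome 4 with 125 bases between them, so their promoter windows share 236 bases. XDH and AOX1, which encode related molybdenum enzymes and moved in opposite directions, AOX1 on few counts, are shown as a pair. PRPS1 is the purine gene upstream of the route that rose. Each window runs from 250 bases before to 50 bases after a RefSeq start on GRCh38.p14, in the sense of the gene. Capitals mark CACGTG, an E-box that is its own reverse complement, or AGGTCA, the half-site of nuclear receptors such as the vitamin D receptor, and PRPS1 holds neither on either strand.
XDH: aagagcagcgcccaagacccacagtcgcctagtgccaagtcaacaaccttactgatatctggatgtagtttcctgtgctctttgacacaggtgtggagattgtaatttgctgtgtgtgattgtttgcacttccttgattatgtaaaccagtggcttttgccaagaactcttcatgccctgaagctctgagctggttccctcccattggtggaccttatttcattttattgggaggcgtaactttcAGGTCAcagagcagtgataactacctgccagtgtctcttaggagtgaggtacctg
AOX1: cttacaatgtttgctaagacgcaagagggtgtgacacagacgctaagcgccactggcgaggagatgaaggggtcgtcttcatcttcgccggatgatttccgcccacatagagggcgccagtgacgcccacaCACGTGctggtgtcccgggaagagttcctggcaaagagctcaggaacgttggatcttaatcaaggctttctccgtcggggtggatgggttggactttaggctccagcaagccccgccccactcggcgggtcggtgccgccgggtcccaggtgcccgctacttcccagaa
PPAT: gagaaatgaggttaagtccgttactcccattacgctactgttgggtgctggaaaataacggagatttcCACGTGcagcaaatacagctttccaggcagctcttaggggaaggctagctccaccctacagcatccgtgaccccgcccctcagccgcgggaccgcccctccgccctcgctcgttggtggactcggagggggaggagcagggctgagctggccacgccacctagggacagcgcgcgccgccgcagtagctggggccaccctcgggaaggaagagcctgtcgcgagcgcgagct
PAICS: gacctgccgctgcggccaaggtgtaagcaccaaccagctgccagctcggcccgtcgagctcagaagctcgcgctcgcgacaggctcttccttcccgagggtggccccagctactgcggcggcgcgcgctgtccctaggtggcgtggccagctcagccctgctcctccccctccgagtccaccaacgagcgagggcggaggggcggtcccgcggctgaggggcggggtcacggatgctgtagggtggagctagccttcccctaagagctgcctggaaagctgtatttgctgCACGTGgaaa
ATIC: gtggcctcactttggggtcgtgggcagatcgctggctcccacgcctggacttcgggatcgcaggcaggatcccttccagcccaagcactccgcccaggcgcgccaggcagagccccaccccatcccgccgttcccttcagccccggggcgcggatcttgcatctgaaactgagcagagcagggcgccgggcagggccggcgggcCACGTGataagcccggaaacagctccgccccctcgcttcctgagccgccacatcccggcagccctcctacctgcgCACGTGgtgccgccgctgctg
PRPS1: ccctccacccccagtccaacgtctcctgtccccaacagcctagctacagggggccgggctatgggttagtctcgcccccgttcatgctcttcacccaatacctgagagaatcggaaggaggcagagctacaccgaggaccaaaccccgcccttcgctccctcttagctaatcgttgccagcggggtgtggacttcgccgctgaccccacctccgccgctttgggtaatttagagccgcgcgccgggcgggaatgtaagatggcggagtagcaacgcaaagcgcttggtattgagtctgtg
The windows are chr2:31414693-31414992 (minus strand) for XDH, chr2:200585764-200586063 (plus) for AOX1, chr4:56435566-56435865 (minus) for PPAT, chr4:56435502-56435801 (plus) for PAICS, chr2:215311809-215312108 (plus) for ATIC and chrX:107628260-107628559 (plus) for PRPS1. PPAT and PAICS hold the same CACGTG, at 56435792 to 56435797 of chromosome 4, which is position -182 of PPAT and 41 of PAICS, counted from 1 at the RefSeq start and negative before it, with no position 0. ATIC holds CACGTG at -46 and at 30, AOX1 at -119, and XDH holds AGGTCA at -5. Of the 35116 RefSeq windows of this length, 7.26% hold CACGTG and 13.8% hold AGGTCA on either strand. RefSeq windows were given for 8 of the 10 genes, all but ADSL and IMPDH2, 12 windows in all. CACGTG stands in 3 of the 12 (PPAT, PAICS and ATIC), with 1 site shared by PPAT and PAICS. AGGTCA stands in 2 of the 12 (XDH and a window further upstream at PAICS). The shares over all windows were not matched for CG content, so they are no base rate for these windows. Windows with 2 AGGTCA in the same direction and a spacer of 3 bases, the arrangement best known for the vitamin D receptor, number 2 of 35116. None of them is a window of the 8 genes. The search took these exact letters within windows of 300 bases, so it cannot show that other forms or more distant sites are absent. The window of XDH has 3 CG dinucleotides, with fewer in 18.2% of all windows and a median of 14. Between 24 and 30 CG stand in the windows of PPAT, PFAS, ATIC, IMPDH1 and HPRT1, between 24 and 31 in the 3 of GART, and 2, 26 and 38 in the 3 of PAICS. These matches are letters only, and binding was not measured.

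Of the 6 genes of the route to IMP, 3 fell (GART, PFAS and PAICS), against 16.5% of all genes tested. The other 3 did not pass the test (PPAT, ADSL and ATIC). PFAS, which makes formylglycinamidine ribonucleotide with glutamine as the nitrogen donor (chr17:8247618-8270491, plus strand), moved furthest. It had 7.69, 8.96 and 9.02 CPM in the control libraries, against 5.38, 4.76 and 4.08 CPM in the 25(OH)D libraries. Every 25(OH)D library lay below every control library, and the highest was well apart from the lowest control. Its log2 fold change was -0.85 (SE, the standard error, 0.130; adjusted p = 0.000147 from edgeR, by Benjamini-Hochberg over all genes tested), or 55.5% of the control level. PFAS rested on 320, 339 and 332 counts in the control group and on 189, 183 and 133 counts in the 25(OH)D group.

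PAICS, which carboxylates the imidazole ring and adds aspartate to it (chr4:56435741-56464579, plus strand), had 43.3, 44.6 and 42.5 CPM in the control libraries, against 37.6, 38.3 and 35.4 CPM in the 25(OH)D libraries. The groups did not overlap, and the log2 fold change was -0.23 (SE 0.0573, adjusted p = 0.00667 from edgeR). GART, which carries the glycinamide ribonucleotide synthetase, the formyltransferase and the aminoimidazole ribonucleotide synthetase of the route (chr21:33503931-33543491, minus strand), had 124.6, 130.1 and 127.1 CPM in the control libraries, against 115.6, 115.6 and 114.7 CPM in the 25(OH)D libraries. Its 3 libraries with 25(OH)D lay closer together, relative to their mean, than those of any other of the 10 genes, and all were below the controls. GART had a log2 fold change of -0.14 (SE 0.0405, adjusted p = 0.0139 from edgeR), 90.6% of the control level. This small fall did not pass the test without control replicate 2 (adjusted p = 0.0875 from edgeR) or without 25(OH)D replicate 2 (adjusted p = 0.0589 from edgeR). GART shares 275 of its 7751 exon bases with SON, which lies on the opposite strand and had a log2 fold change of -0.03.

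The remaining genes of the route did not pass. PPAT, the amidophosphoribosyltransferase that commits PRPP to the route (chr4:56393362-56435615, minus strand), had 13.4, 12.8 and 13.4 CPM in the control libraries, against 15.0, 13.6 and 15.4 CPM in the 25(OH)D libraries. In CPM it was the only one of the 10 genes whose 25(OH)D libraries all lay above the controls, by a narrow margin. In RPKM, scaled by exon length and library total, 25(OH)D replicate 2 (2.47) lay below control replicates 1 (2.51) and 3 (2.48). PPAT had a log2 fold change of 0.15 (SE 0.0836, 95% interval -0.01 to 0.32, adjusted p = 0.186 from edgeR), and the interval includes 0. ATIC, which formylates and closes the ring to give IMP (chr2:215311817-215349773, plus strand), had 69.5, 67.6 and 70.2 CPM in the control libraries, against 65.5, 65.3 and 59.7 CPM in the 25(OH)D libraries. All 25(OH)D libraries of ATIC were below the controls, with replicate 3 the lowest. The log2 fold change of ATIC was -0.12 (SE 0.0523, 95% interval -0.22 to -0.02 before adjustment, adjusted p = 0.0905 from edgeR), and on library sizes alone it passed, at -0.17 (adjusted p = 0.0260 from edgeR).

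ADSL, the lyase that releases fumarate both on the route to IMP and in the making of AMP (chr22:40346500-40390463, plus strand), had 52.8, 53.4 and 54.0 CPM in the control libraries, against 53.2, 54.0 and 50.5 CPM in the 25(OH)D libraries. In CPM it was the only one of the 10 genes whose groups overlapped. In RPKM the 25(OH)D libraries of ADSL (7.34, 7.54 and 6.96) all lay below the lowest control (7.56). Its log2 fold change was -0.02 (SE 0.0516, 95% interval -0.12 to 0.08, adjusted p = 0.785 from edgeR). Of the 100-base stretches of its transcripts, 13.7% also occur in the transcripts of AL022238.4, so reads of both genes may be mixed in its value, while the share was at most 1.99% in the other 9 genes.

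Beyond IMP, the genes of the step towards GMP both fell. IMPDH2, the IMP dehydrogenase that is known to be raised in dividing cells (chr3:49024325-49029408, minus strand), was the most abundant of the 10 genes per length. It had 146, 145 and 145 CPM in the control libraries, against 112, 105 and 103 CPM with 25(OH)D, with a wide gap between the groups beside the spread within them. IMPDH2 had a log2 fold change of -0.45 (SE 0.0432, adjusted p = 1.72e-06 from edgeR), 73.4% of the control level. It shares 93 of its 2773 exon bases with RP13-131K19.6 on the opposite strand, which fell too (log2 fold change -0.54). IMPDH1, the other isoform (chr7:128392277-128410252, minus strand), had 39.8, 36.7 and 36.6 CPM in the control libraries, against 33.3, 30.8 and 30.3 CPM in the 25(OH)D libraries. The groups of IMPDH1 did not overlap, and its log2 fold change was -0.26 (SE 0.0638, adjusted p = 0.00529 from edgeR).

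HPRT1, the salvage enzyme for hypoxanthine and guanine that is often used as a reference gene in qPCR (chrX:134460153-134520513, plus strand), had 18.2, 19.0 and 21.5 CPM in the control libraries, against 14.7, 16.5 and 13.9 CPM in the 25(OH)D libraries. Its libraries were spread within each group, yet the groups did not overlap. HPRT1 thus had a log2 fold change of -0.37 (SE 0.0897, adjusted p = 0.00499 from edgeR), 77.2% of the control level, and it passed the test with each library left out (log2 fold change between -0.44 and -0.29). XDH (chr2:31334321-31414715, minus strand) had 175, 148 and 164 counts in the control libraries against 10, 14 and 18 counts with 25(OH)D, 9.54% of the control level. XDH had a log2 fold change of -3.39 (SE 0.244, adjusted p = 7.9e-08 from edgeR), and on the log2(RPKM + 1) scale, where an added 1 shrinks any change at such a low level, -0.68.

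**Figure D2:**
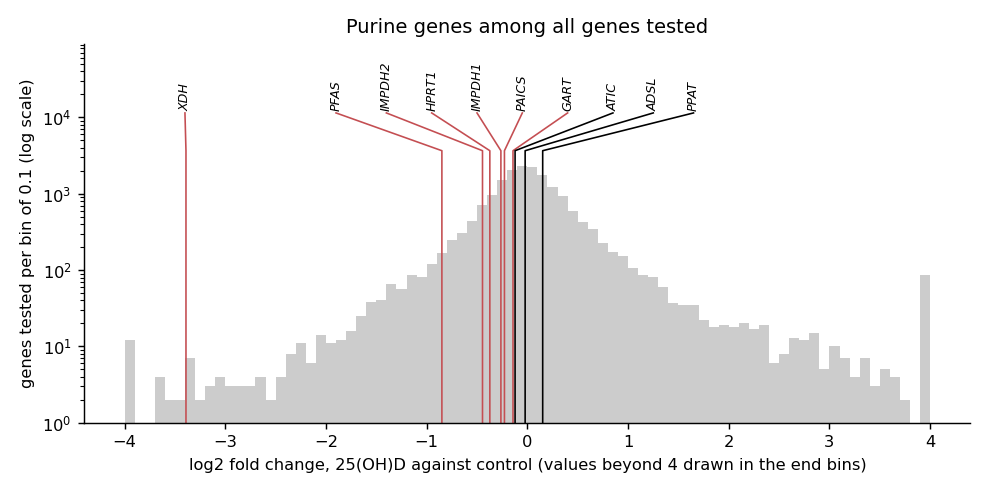
The 10 genes placed on the distribution of log2 fold changes of all 18183 genes tested, in bins of 0.1 on a log count axis. Red lines are genes called lower and black lines genes that did not pass the test. All but XDH and PFAS lie within the bulk of the distribution, between -0.45 and 0.15.

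The levels of the genes were compared per length, as RPKM, in which the count is divided by the exon length and by the library total. In the control group IMPDH2 stood at 53.2 ± 0.447 RPKM (SD, n = 3) and was followed by ATIC at 17.8 ± 0.298, GART at 16.7 ± 0.371, HPRT1 at 12.2 ± 1.01 and IMPDH1 at 10.5 ± 0.526 RPKM. ADSL had 7.62 ± 0.0521, PAICS 5.87 ± 0.163, PPAT 2.46 ± 0.0592, PFAS 1.34 ± 0.115 and XDH 0.704 ± 0.0428 RPKM. No neighbours in this order overlapped in the control libraries. The order was the same in the 25(OH)D group, from IMPDH2 at 37.9 ± 1.52 RPKM to XDH at 0.0652 ± 0.0222 RPKM (SD, n = 3), where HPRT1 (9.13 ± 0.864 RPKM) and IMPDH1 (8.45 ± 0.413 RPKM) overlapped. The 2 least abundant genes of the 10, XDH and PFAS, were also those with the largest falls. Summed over the 6 genes of the route to IMP, the RPKM level went from 51.8 ± 0.288 to 46.1 ± 1.49, and summed over IMPDH1 and IMPDH2 from 63.6 ± 0.966 to 46.3 ± 1.93 (SD, n = 3 each). RPKM leaves out the factors of the test, which were 1.01 to 1.02 in the control libraries and 0.98 to 0.99 in the 25(OH)D libraries. Falls in RPKM are therefore somewhat larger than in CPM. IMPDH2 made up 83.6% ± 0.576 of the IMPDH sum in the control group and 81.8% ± 0.161 in the 25(OH)D group (SD, n = 3 each).

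**Figure D3:**
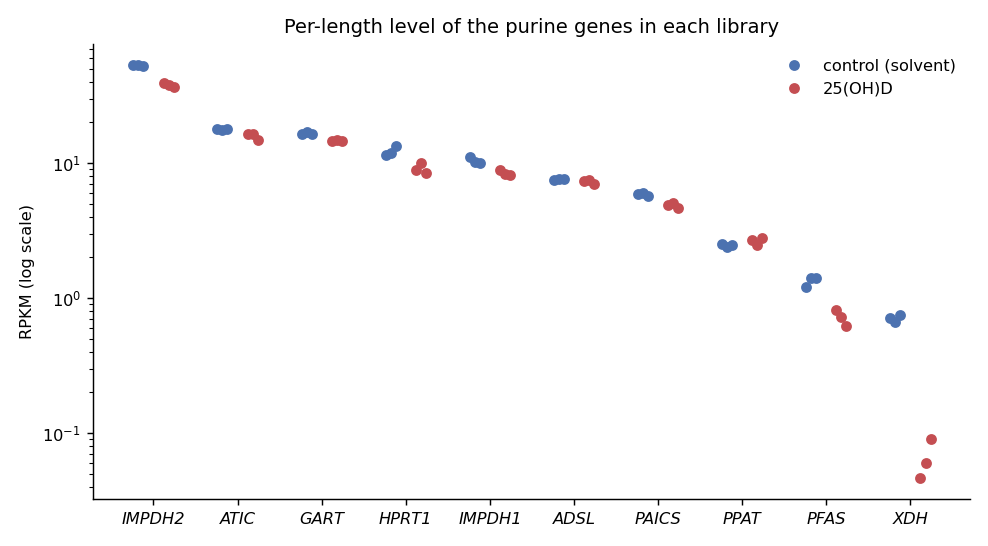
RPKM of each of the 10 genes in each library on a log axis, ordered by the control mean. Points are libraries. The order is the same in both groups, from IMPDH2 at 53.2 RPKM to XDH at 0.704 RPKM in the controls.

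In 4 pairs of genes with related roles, the ratio of the RPKM values was taken within each library, which removes the scaling between libraries. The pairs were chosen after their values had been seen. PAICS per PPAT, the genes that start head to head, was 2.34, 2.52 and 2.30 in the control libraries, against 1.81, 2.05 and 1.66 in the 25(OH)D libraries. IMPDH2 per IMPDH1 was 4.85, 5.20 and 5.23 against 4.43, 4.52 and 4.49. PRPS1 per PRPS2 was 11.4, 10.7 and 8.82 against 16.3, 17.3 and 22.2. SLC29A1 per SLC29A2, the equilibrative nucleoside transporters, was 1.58, 1.30 and 1.46 against 0.873, 0.931 and 0.831. In none of the 4 did the groups overlap, and each had p = 0.1 in a two-sided exact permutation test, the smallest that 3 libraries against 3 allow (0.1 also after adjustment over the 4). As the pairs were picked on these same values, this p does not test them. The groups did not overlap in 45.7% of all single genes tested, and no share over other gene pairs was computed.

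**Figure D4:**
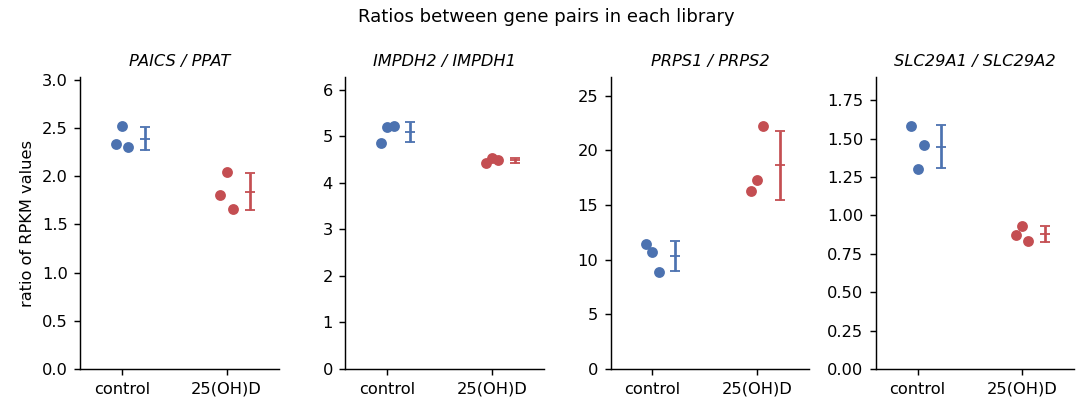
Ratio of the RPKM values of 4 gene pairs in each library, on axes that start at 0. Points are libraries, and the bars beside them are the mean and SD (n = 3). The mean ratio went from 2.39 to 1.84 for PAICS per PPAT, from 5.09 to 4.48 for IMPDH2 per IMPDH1, from 10.3 to 18.6 for PRPS1 per PRPS2 and from 1.45 to 0.878 for SLC29A1 per SLC29A2.

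Among the other genes of purine metabolism, more rose than fell. Of the 46 listed, 45 were in the table and 36 were tested, of which 3 fell (8.33%) and 9 rose (25%), against 16.5% and 17.3% of all genes tested. Their median log2 fold change was 0.08. The number that fell was 5 and the number that rose 7 on library sizes alone, so the balance between them moved with the scaling.

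In the supply of PRPP, 1 of 4 genes rose (25%), against 17.3% of all genes tested. PRPS1, a PRPP synthetase, had 36.2, 34.5 and 38.2 CPM in the control libraries, against 69.8, 67.8 and 73.4 CPM in the 25(OH)D libraries. The 2 groups were far apart, with a log2 fold change of 0.95 (SE 0.0576, adjusted p = 1.17e-08 from edgeR), 1.94-fold. Its counterpart PRPS2 (log2 fold change 0.10, adjusted p = 0.671 from edgeR) and the associated proteins PRPSAP1 (0.09, adjusted p = 0.236) and PRPSAP2 (0.09, adjusted p = 0.420) did not pass the test.

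Of the 5 genes at the branch to AMP and GMP, 3 rose (60%) and 1 fell (20%), against 17.3% and 16.5% of all genes tested. GMPS, which aminates XMP to GMP in the step after IMPDH, fell with IMPDH2 by 0.19 on the log2 scale (adjusted p = 0.00520 from edgeR), from 119 ± 2.95 to 104 ± 4.82 CPM (SD, n = 3 each). GMPR and GMPR2, which return GMP to IMP, rose, with log2 fold changes of 1.97 (adjusted p = 0.00479 from edgeR) and 0.22 (adjusted p = 0.0208). GMPR rested on 7, 4 and 16 counts in the control libraries against 36, 39 and 24. Its log2 fold change was 2.73 without control replicate 3 and 1.64 without control replicate 2. Only control replicate 3 reached the minimum of 10 counts, so the low-count filter kept GMPR because of the 25(OH)D group, where it was higher. ADSS2, the adenylosuccinate synthetase on the way to AMP, rose by 0.15 on the log2 scale (adjusted p = 0.0299 from edgeR), and ADSS1 had 0.40 (adjusted p = 0.0722). The calls of ADSS2 and GMPR2 were lost in several settings, among them library sizes alone and limma on RPKM. Without control replicate 2 both were lost (adjusted p = 0.112 and 0.0960 from edgeR). That of ADSS2 was also lost without 25(OH)D replicate 1 (0.131), and that of GMPR2 without control replicate 3 (0.0542) or 25(OH)D replicate 2 (0.0524).

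Among the 5 further salvage genes, DCK, the deoxycytidine kinase that also phosphorylates purine deoxynucleosides, fell by 0.17 on the log2 scale (adjusted p = 0.0486 from edgeR). This call was lost with RLE factors, another scaling of the libraries, and by DESeq2 (adjusted p = 0.0736). It was also lost with each library left out except control replicate 3 (adjusted p of up to 0.255 from edgeR). APRT, the adenine counterpart of HPRT1, had 10.2 ± 0.452 CPM in the control group and 9.54 ± 1.15 CPM in the 25(OH)D group (SD, n = 3 each), and its log2 fold change of -0.09 (95% interval -0.30 to 0.11) did not pass. ADK (0.10), DGUOK (-0.07) and MTAP (0.05) did not pass either.

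Of the 10 genes of purine breakdown that were tested, 2 rose (20%) and 1 fell (10%), against 17.3% and 16.5% of all genes tested. PNP, the purine nucleoside phosphorylase that frees hypoxanthine and guanine, had 43.8, 45.2 and 46.4 CPM in the control libraries, against 66.4, 69.4 and 66.0 CPM in the 25(OH)D libraries. All 25(OH)D libraries were above the controls, with a log2 fold change of 0.58 (SE 0.0515, adjusted p = 7.44e-07 from edgeR). It thus rose while HPRT1 and XDH, which take up its products, fell. NT5C, a deoxyribonucleotidase, fell from 45.8, 43.0 and 42.8 CPM to 13.7, 13.1 and 11.9 CPM, a log2 fold change of -1.77 (SE 0.0711, adjusted p = 1.3e-10 from edgeR). It shares 913 of its 1571 exon bases (58.1%) with RP11-649A18.3 on the opposite strand, which had a log2 fold change of -1.69, and 41 with ARMC7, which had 2.60. PNP shares 492 exon bases with RP11-203M5.8 on the opposite strand (log2 fold change 0.65). Whether strand was used in counting is not given in the sources used here, so the reads of these overlapping genes cannot be told apart. NT5C2, which dephosphorylates IMP and GMP, rose by 0.23 on the log2 scale (adjusted p = 0.0155 from edgeR). This call was lost by limma on RPKM, and without control replicate 2 (adjusted p = 0.0684 from edgeR) or 25(OH)D replicate 1 (0.0523). NT5C2 shares 1892 of its 5156 exon bases with CNNM2 on the opposite strand, which had a log2 fold change of 0.02. ADA, the adenosine deaminase, had 4 counts in control replicate 1 and 0 in the other 5 libraries, and AMPD1 and GDA had at most 2 counts in any library, so their changes were not detectable at this depth.

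Of the 12 purine nucleotide kinases tested, 3 rose (25%) and 0 fell, against 17.3% and 16.5% of all genes tested, and 9 did not pass the test. GUK1, which phosphorylates GMP to GDP, rose from 264.8, 279.8 and 288.8 CPM to 373, 393 and 413 CPM, a log2 fold change of 0.50 (adjusted p = 8.85e-07 from edgeR). AK4, an adenylate kinase of mitochondria, rose by 0.61 (adjusted p = 1.94e-06) and AK1 by 0.22 (adjusted p = 0.00674) on the log2 scale. AK1 shares 761 of its 2667 exon bases with RP11-203J24.9 on the same strand (log2 fold change 0.23). The counts of both genes were nearly equal in every library (1638 and 1648 in control replicate 1, 1715 and 1718 in 25(OH)D replicate 1). The rise can therefore not be assigned to AK1 alone.

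**Figure D5:**
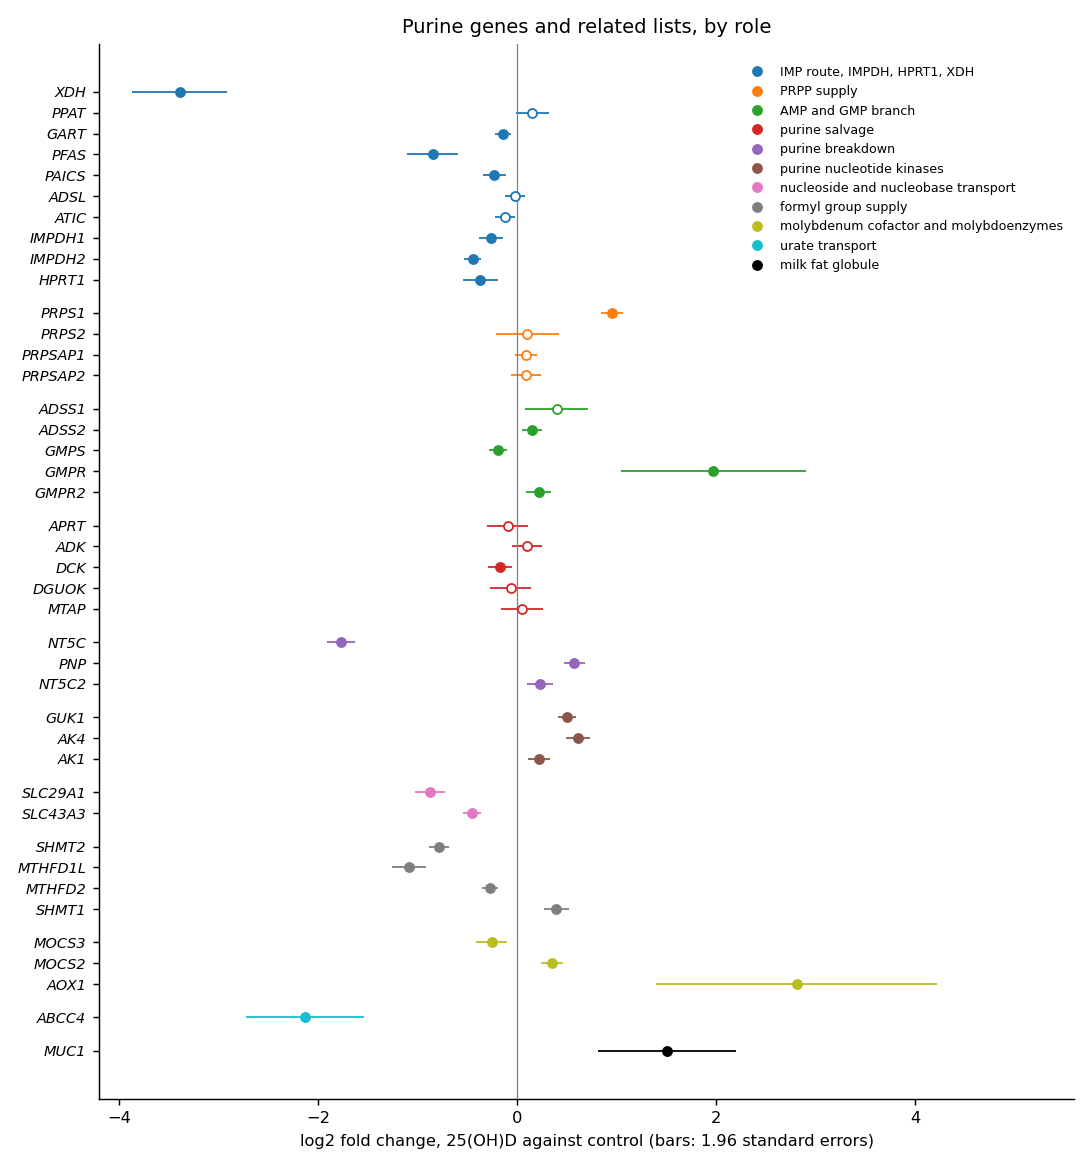
Log2 fold change of 25(OH)D against control for the 10 genes and the other named genes, grouped and coloured by role. Filled points passed an adjusted p under 0.05 and open points did not, and bars are 95% intervals. The 10 genes lie mostly below 0, with XDH at -3.39. Of the PRPP supply only PRPS1, at 0.95, passed the test.

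GART and ATIC take their formyl groups from folate, and 3 of the 10 tested genes of that supply fell while 1 rose, against 16.5% and 17.3% of all genes tested. The genes that fell encode mitochondrial enzymes. SHMT2, which takes the carbon from serine, had 85.7, 83.1 and 84.7 CPM in the control libraries, against 50.9, 50.3 and 46.2 CPM in the 25(OH)D libraries (log2 fold change -0.78, SE 0.0523, adjusted p = 3.49e-08 from edgeR). MTHFD1L, which releases the carbon as formate, had 25.4, 25.1 and 23.5 CPM against 13.1, 11.2 and 10.6 CPM (log2 fold change -1.09, SE 0.0868, adjusted p = 2.42e-07 from edgeR). MTHFD2, the dehydrogenase between them, fell by 0.28 on the log2 scale (adjusted p = 0.000108 from edgeR). On the opposite strand SHMT2 shares 427 exon bases with RP11-123K3.9 (log2 fold change -0.67), and MTHFD2 shares 295 with RP11-287D1.3 (-0.27) and 1324 with SLC4A5 (0.13). SHMT1, the cytosolic counterpart of SHMT2, rose by 0.40 (adjusted p = 0.000167 from edgeR). MTHFD1, the cytosolic enzyme that attaches formate to folate, had a log2 fold change of 0.02 and did not pass.

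Nucleosides and bases are carried across membranes by transporters, of which 4 were tested and 2 fell, against 16.5% of all genes tested. SLC29A1, the main equilibrative nucleoside transporter, had 28.4, 26.7 and 27.6 CPM in the control libraries, against 16.2, 15.0 and 13.8 CPM in the 25(OH)D libraries. Its groups were far apart, with a log2 fold change of -0.88 (SE 0.0757, adjusted p = 5.45e-07 from edgeR). SLC43A3, a transporter of purine bases, went from 138 ± 3.67 to 101 ± 4.08 CPM (SD, n = 3 each; log2 fold change -0.45, adjusted p = 2.15e-06 from edgeR). It shares 1349 of its 4517 exon bases with RP11-872D17.8 on the same strand, whose log2 fold change was also -0.45, so reads of both may be the same. SLC29A2 and SLC29A3 did not pass.

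XDH needs the molybdenum cofactor. Of the 8 genes of that cofactor and its other enzymes, 2 rose, 1 fell and 5 did not pass the test, a share near the 33.8% called over all genes tested. MOCS2, a subunit gene of molybdopterin synthase, rose by 0.35 on the log2 scale (adjusted p = 0.000160 from edgeR). MOCS3, which charges that synthase with sulfur, fell by 0.26 (adjusted p = 0.0250 from edgeR), a call lost without control replicate 1 (adjusted p = 0.122), control replicate 3 (0.0566), 25(OH)D replicate 1 (0.0560) or 25(OH)D replicate 3 (0.114). AOX1, the aldehyde oxidase most closely related to XDH, had 4, 0 and 2 counts in the control libraries, against 10, 12 and 18 counts with 25(OH)D. No control library reached the minimum of 10 counts, so the low-count filter kept AOX1 only because of the 25(OH)D group, where it was higher. Per length, AOX1 stood at 0.0678 ± 0.0258 RPKM with 25(OH)D and XDH at 0.0652 ± 0.0222 RPKM (SD, n = 3 each), so their libraries overlapped there, while in the controls XDH was far above AOX1. The log2 fold change of AOX1 was 2.81 (SE 0.719, adjusted p = 0.00738 from edgeR, between 2.28 and 3.67 with each library left out), and on the log2(RPKM + 1) scale it did not pass (adjusted p = 0.101 from limma).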

How the data were processed

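The 6 mRNA libraries, 3 of MDA-MB-453 cells given 25(OH)D and 3 of cells given solvent, were prepared with a stranded kit and sequenced from both ends. Groups and replicate numbers were taken from the sample labels. The authors deposited whole-number counts per gene without normalization, and RPKM values, each of which equalled the count divided by gene length and library total (largest relative difference 2.23e-13). The submitters' processing notes name Trimmomatic 0.36, featureCounts of Subread 1.5.1, edgeR 3.12.1 and GRCh38, and the aligner, the annotation release and the strand setting are not given in the sources used here. Start and end of the 10 genes equalled those of GENCODE 29, and differed in 7 genes of the other lists.

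Counts were fitted in R 4.3.3 with edgeR 4.0.16 (TMM factors, the package's low-count filter with a minimum count of 10, quasi-likelihood test without covariates), and p-values were adjusted by Benjamini-Hochberg over the 18183 genes tested. Standard errors are the absolute log2 fold change divided by the square root of F. CPM values use TMM-scaled library sizes. The test was checked on simulated data. The totals of 33268860 to 40928176 counts limit precision at low counts. Ratios were compared by exact permutation. Alternatives used DESeq2 1.42.0 and limma 3.58.1, and other steps Python 3.11.15 with numpy 2.4.6, pandas 2.3.3, scipy 1.17.1 and matplotlib 3.10.9. Promoter windows came from RefSeq (GRCh38.p14).

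The 10 genes, the gene lists and the tests were chosen with earlier results of these data known. Named are the 10 genes, all genes of the PRPP, AMP and GMP branch and salvage lists, in the other lists up to 3 called genes with the smallest p in each direction, and any called gene of the lists beyond a log2 fold change of 1. Genes that overlap these, further luminal markers and genes at or near 0 counts were named after their values were seen. Another of the luminal markers is not reported here.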

Additional observations from a re-analysis of the deposited data

How the results depend on the processing

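Across 15 alternatives, 610 values were recomputed for the 41 named genes, of which 574 kept their direction and side of the threshold, 31 in 7 genes lost the call (GART, ADSS2, GMPR2, DCK, NT5C2, MOCS3 and AOX1), and 4, all of ATIC, gained it. The direction reversed in 1, ADSL, which did not pass in any, at 0.017 without 25(OH)D replicate 3 (between -0.035 and 0.017 with each library left out). At the study's limits of a log2 fold change beyond 1 and an unadjusted p under 0.05, the number of genes called was 1209 in place of 6142, the purine genes called lower 1 in place of 7, and the other purine genes called higher 1 in place of 9. The other purine genes called lower were 5 in place of 3 with upper-quartile factors and on library sizes alone. With each library left out, between 5091 and 5697 genes were called, of which 6 to 7 of the 10 purine genes were lower and 0 higher, and of the other purine genes 2 to 3 were lower and 6 to 11 higher. With the replicate number as a block, 5953 genes were called, and 7 of the 10 were lower. Same-numbered libraries did not deviate together (correlations of -0.072, -0.012 and -0.046), and the blocked fit changed no call of the 10 genes. The labels do not say whether same-numbered libraries were handled together, and correlations among so few libraries cannot decide it. With a filter on a mean of at least 100 counts XDH was not tested, and 6 of the remaining 9 genes were lower.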

Other observations

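XDH is also known as a protein of the milk fat globule and as the source of urate, and the genes of both were at low levels in these cells. Of the milk fat globule genes, BTN1A1, the butyrophilin that binds XDH, had 2 counts in 25(OH)D replicate 1 and 0 counts elsewhere, and PLIN2, the perilipin of the same complex, had at most 8 counts in any library. MUC1, a mucin of the globule surface, had 13, 16 and 13 counts in the control libraries, against 29, 45 and 36 counts in the 25(OH)D libraries, which did not overlap. MUC1 thus had a log2 fold change of 1.51 (SE 0.354, adjusted p = 0.00426 from edgeR). In this list 1 of the 3 genes tested rose, against 17.3% of all genes tested. Of the urate transporters 2 could be tested. ABCC4, an exporter of urate and of cyclic nucleotides, had 98, 60 and 66 counts in the control libraries, against 14, 14 and 18 counts in the 25(OH)D libraries, every one of them below the controls. The log2 fold change of ABCC4 was -2.13 (SE 0.302, adjusted p = 7.13e-05 from edgeR, between -2.31 and -1.94 with each library left out). SLC2A9, an importer of urate, had -0.54 and did not pass the test.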
